A study of Mus musculus with 70 samples.

Results

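RNASeq of control B16F10 tumors was examined on day 7 after sham ablation, as a comparison of the CD45+ immune cells with the CD45- tumor and tumor-supporting cells that were flow-sorted from them. All 10 CD45+ and all 11 CD45- control libraries of that day were taken by their labels, which gave 21 of the 70 libraries of the series, and their counts were joined by gene symbol. The study as a whole used male and female C57BL/6 mice, 6 to 8 weeks old when purchased. The mice of these groups carried tumors of B16F10 on both flanks, of which 1 received the procedure. B16F10 is a melanoma line of that strain and forms pigmented tumors under the skin. No allele, transgene or drug was part of these groups, and the control mice had received the sham procedure only. The labels give day 7, and so do the Results of the study for RNASeq of CD45+ cells, whereas a legend gives a later day for these cells. Day 7 was used, and for CD45- cells it rests on the labels. Tumors were digested with collagenase and hyaluronidase, red cells were lysed, and the remaining cells were treated with trypsin before the sort. A sex, a sequencing batch, a shared tumor or a shared mouse is not given for any library, though X- and Y-linked RNA (below) had a female pattern in every CD45+ library. Libraries of a fraction may share mice, the part of sex and batch in a difference was not tested, and the p-values measure the spread between these samples.

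CD45 is a receptor tyrosine phosphatase on the surface of nucleated blood-derived cells, where it sets the threshold of antigen receptor signaling, and it is the standard marker for separating leukocytes from the other cells of a tumor. Among leukocytes, myeloid cells take up debris and secrete cytokines, dendritic cells present antigen on MHC class II, and T cells and NK cells kill target cells with granzymes and perforin. Melanoma cells keep much of the program of the pigment cell, in which MITF and SOX10 drive the enzymes and structural proteins of the melanosome, and B16F10 is known for low surface MHC class I that rises under interferon. In bulk RNA of a sorted fraction, fewer cells of a type and less RNA per cell cannot be told apart.

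Ptprc, the gene of CD45 (chromosome 1, 138062861 to 138175708, minus strand, GRCm38), was read first as a check of the labels. It had 934 to 2403 counts in each CD45+ library and 0 or 1 count in each CD45- library. In counts per 1000000 of the library total after scaling by TMM factors, which match the bulk of genes between libraries (CPM throughout), the lowest, median and highest CD45+ library had 732, 1058 and 1371, and 10 of the 11 CD45- libraries had 0. With 3 counts per library as a floor (1.22 CPM on average in CD45- cells and 2.08 CPM in CD45+ cells), the CD45+ level was at least 885-fold higher. Since the sort used this protein, its level is a description and not a finding. The labels held in all 21 libraries. Libraries held between 887798 and 3132646 counts, with a median of 1907539 in CD45+ and 2397749 in CD45- cells, and the ribosomal RNA transcript CT010467.1, named after its values were seen, took 6.21% to 10.5% of them.

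Most tested genes differed between the fractions, though 3619 had a log2 fold change between -0.5 and 0.5, so a gene was treated as a marker only when its difference was tested to exceed 4-fold. Of 10803 genes with enough counts, 8691 (80.4%) passed an adjusted p of 0.05 in edgeR, 4589 (42.5%) with a higher level in CD45+ and 4102 (38.0%) with a higher level in CD45- cells. This split depended on the TMM scaling: scaled by the library total alone, it was 3651 against 5249, and the median log2 fold change moved from 0.05 to -0.24. The test against 4-fold left 2380 genes (22.0%), with 1513 (14.0%) that marked CD45+ cells and 867 (8.03%) that marked CD45- cells. In 5080 genes (47.0%) the fractions did not overlap, 2813 (26.0%) of them higher in CD45+ cells. Log2 fold changes are CD45+ minus CD45- throughout.

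**Figure D1:**
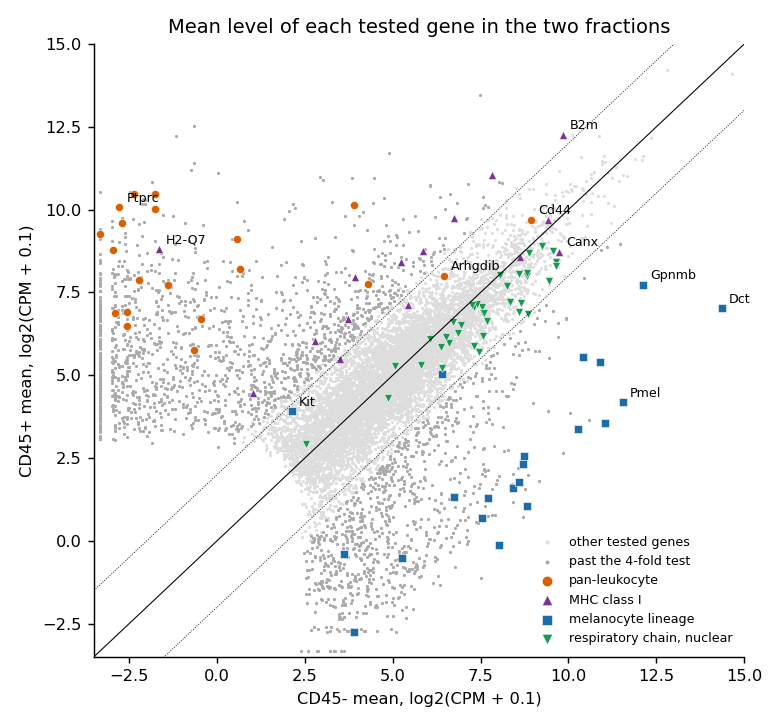
Mean level of each of the 10803 tested genes in CD45+ cells (vertical axis, log2 of CPM + 0.1) against CD45- cells (horizontal axis, same scale), with dark grey for genes past the 4-fold test, coloured symbols for 4 lists, a solid line at equal levels and dotted lines at 4-fold. Pan-leukocyte genes lie at the upper left except Cd44 and Arhgdib, melanocyte genes lie below the lower dotted line except Kit and Rab27a, and genes of the respiratory chain lie between the dotted lines.

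The share of counts that each marker set took was described in both fractions. Since the sets were chosen by a difference of more than 4-fold, a lower share in the other fraction was fixed in advance. The 1513 CD45+ markers took 21.1% to 26.4% of the counts of a CD45+ library and 1.04% to 1.49% of those of a CD45- library. In CD45- cells, 665 of them were at the floor in each library and 188 had no count in any. The 867 CD45- markers took 11.4% to 12.6% of a CD45- library and 0.576% to 0.700% of a CD45+ library, and 301 were at the floor and 11 without a count in CD45+ cells. A CD45+ marker had a median of 1.5% of its own level in the other fraction, and a CD45- marker 5.16%.

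Genes that all leukocytes share were higher in CD45+ cells. All 20 tested pan-leukocyte genes were higher in CD45+ cells, 18 of them past 4-fold, with a median log2 fold change of 9.91 (7.51 with the 12 genes at the floor set to their bound), where all tested genes had a median of 0.05. Cd52, a small glycoprotein on lymphocytes and macrophages, had 1219, 1419 and 1602 CPM in the lowest, median and highest CD45+ library and at most 0.387 in CD45- cells. Laptm5, a lysosomal protein that limits antigen receptor signaling, ranged from 1188 to 1579 (median 1469) against at most 0.736. Cytip, which regulates leukocyte adhesion, had 493 to 712 CPM (median 599) and no count in any CD45- library, a difference of at least 501-fold. None of these genes overlapped between the fractions. The exceptions were Cd44, the hyaluronan receptor, and Arhgdib, a regulator of small GTPases. Cd44 had 546, 766 and 1432 CPM in CD45+ and 371, 453 and 649 CPM in CD45- cells, so that the fractions overlapped although its log2 fold change of 0.76 ± 0.14 (SE) passed the test (edgeR adjusted p = 1.8e-05). Arhgdib had 195 to 320 against 63.3 to 115 CPM (log2 fold change 1.55 ± 0.11) without overlap.

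These promoters are shown because they hold a motif letter for letter and belong to genes far apart between the fractions. Cd53 and Vav1 had at most 0.594 and 0.368 CPM in CD45- cells, and Tyr and Tyrp1 (described with the melanocyte genes) at most 4.01 and 25.1 CPM in CD45+ cells. Each sequence runs from 250 bases before to 50 bases after the RefSeq start site in GRCm38.p6, 5′ to 3′ on the strand of the gene, with capitals for the match to a motif. The PU.1 motif searched was GAGGAAGT, the site of the myeloid and B cell factor encoded by Spi1, and the M-box core searched was TCATGTG, the E-box form that MITF binds, both on either strand. In Cd53 (chr3:106790100-106790399, minus strand) the PU.1 letters lie on the opposite strand and so read ACTTCCTC, 6 bases after the start, and in Vav1 (chr17:57278850-57279149, plus strand) they begin 11 bases before it. The M-box letters begin 22 bases before the start of Tyr (chr7:87493463-87493762, minus strand) and 47 bases before that of Tyrp1 (chr4:80833963-80834262, plus strand).
Cd53: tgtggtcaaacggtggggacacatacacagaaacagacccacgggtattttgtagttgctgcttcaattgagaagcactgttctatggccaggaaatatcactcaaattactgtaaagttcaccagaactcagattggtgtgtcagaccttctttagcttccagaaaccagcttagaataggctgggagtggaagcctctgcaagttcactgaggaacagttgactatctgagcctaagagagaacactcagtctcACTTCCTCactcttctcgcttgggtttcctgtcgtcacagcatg
Vav1: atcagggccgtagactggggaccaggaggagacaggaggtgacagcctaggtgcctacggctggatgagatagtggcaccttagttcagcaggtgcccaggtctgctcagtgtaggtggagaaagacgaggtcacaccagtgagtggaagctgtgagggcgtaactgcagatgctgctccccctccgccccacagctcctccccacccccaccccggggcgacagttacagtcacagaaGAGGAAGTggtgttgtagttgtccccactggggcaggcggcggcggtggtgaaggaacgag
Tyr: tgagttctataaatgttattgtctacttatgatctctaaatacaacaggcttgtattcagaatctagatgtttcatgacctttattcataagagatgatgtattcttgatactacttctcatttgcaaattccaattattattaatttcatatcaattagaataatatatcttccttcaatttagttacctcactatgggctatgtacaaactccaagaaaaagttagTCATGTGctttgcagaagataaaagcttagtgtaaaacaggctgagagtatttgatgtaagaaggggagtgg
Tyrp1: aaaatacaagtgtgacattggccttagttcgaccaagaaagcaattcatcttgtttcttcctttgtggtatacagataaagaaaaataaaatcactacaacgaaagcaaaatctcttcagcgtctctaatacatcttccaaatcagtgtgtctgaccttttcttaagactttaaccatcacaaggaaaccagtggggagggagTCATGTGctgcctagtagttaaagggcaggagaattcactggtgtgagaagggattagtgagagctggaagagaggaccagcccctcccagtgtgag
Cd53 and Vav1 stand for a tetraspanin and a signaling adaptor of blood cells, and Tyr and Tyrp1 for the enzymes that make melanin. The PU.1 letters stood in 3.20% of all 32851 RefSeq windows of this length, in 7.23% of the 1452 windows of CD45+ markers and in 2.18% of the 918 windows of CD45- markers, for which 1086 of 1513 and 671 of 867 genes had a window. Among 22 windows of pan-leukocyte genes, 3 held them (Cd37, Cd53 and Vav1), and the M-box letters were in 0. The M-box letters stood in 3.77% of all windows, in 4.13% of those of CD45+ markers, in 3.59% of those of CD45- markers and in 6 of 23 windows of the melanocyte list (26.1%; Dct, Mc1r, Slc24a5, Trpm1, Tyr and Tyrp1), which matched 16 of its 24 genes. The letters AACCACA of a RUNX site were in 5.27% of all windows, 7.85% of CD45+ and 3.16% of CD45- marker windows, and in 3 of 22 pan-leukocyte (13.6%) and 4 of 23 melanocyte windows (17.4%). In the 10601 windows of all tested genes, the PU.1, M-box and RUNX letters stood in 3.43%, 2.28% and 3.71%. A match of letters is a description of the sequence and not a site of binding.

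Monocyte and macrophage genes were abundant in the CD45+ fraction, with summed levels of 7516 to 13157 CPM. Of 21 tested monocyte and macrophage genes, 20 passed the 4-fold test toward CD45+ cells, with a median log2 fold change of 10.43 over the list (7.62 with genes at the floor at their bound). Lyz2, the lysozyme of macrophages and granulocytes, had 1555, 2340 and 3063 CPM in the lowest, median and highest CD45+ library and at most 2.58 in CD45- cells (log2 fold change 11.91 ± 0.28). Ctss, a lysosomal protease of antigen-presenting cells, had 1733 to 2558 CPM (median 2244) against at most 2.29. Neither gene overlapped. C1qa, a chain of the complement component C1q made by tissue macrophages, had 108 to 395 CPM (median 241), and Arg1, the arginase of suppressive myeloid cells, 307 to 1200 (median 979). Csf1r, the receptor that macrophages need for survival, had 294 to 534 CPM (median 403) and was at least 338-fold higher.

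Apoe was the member of the macrophage list that did not separate. This lipid carrier, made by macrophages and by many melanoma lines, had 203, 524 and 749 CPM in CD45+ and 459, 514 and 601 CPM in CD45- cells. The fractions overlapped, and the log2 fold change was -0.05 ± 0.14 (edgeR adjusted p = 0.74). Without CD45+ replicate 1 it was 0.01, and with library totals it was -0.35 and passed the test toward CD45- cells.

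The largest fitted log2 fold changes among CD45+ markers of at least 50 CPM were those of Ccl3, Clec4e, Ptprc, Il1b, Cytip, Cxcl2, Clec7a, Ly6c2, Ccl4 and Cd52. Except for Cxcl2 these genes were at the floor in CD45- cells, so the fitted values do not order them and only bounds are given. Ccl3, a chemokine for monocytes and T cells, had 890, 1281 and 2530 CPM in CD45+ cells and no count in the 11 CD45- libraries, at least 1218-fold. Il1b, the secreted inflammatory cytokine IL-1β, had 3146 to 7051 CPM (median 4325) and 0 to 3 counts per CD45- library, at least 3906-fold. Cxcl2, a neutrophil attractant, ranged from 2147 to 12402 CPM (median 4849), the widest range of these genes in CPM. The most abundant marker was Nfkbia, the inhibitor that NF-κB induces against itself, with 7606, 10580 and 17416 CPM in CD45+ cells and 121, 165 and 286 CPM in CD45- cells (log2 fold change 5.98 ± 0.19). Clec4e and Clec7a are receptors for microbial glycolipids and β-glucan, Ly6c2 marks inflammatory monocytes, and Tnf, the cytokine TNF, had 619 to 1639 CPM (median 1130) against at most 0.822.

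Granulocytes, dendritic cells and lymphocytes were all represented. The 10 tested neutrophil genes of 15 passed the 4-fold test, with S100a8, a subunit of calprotectin, at 883 to 3169 CPM (median 1715) and Cxcr2, the receptor for Cxcl2, at 11.4 to 51.7 CPM (median 27.8). Ly6g, the defining surface marker of neutrophils, had 1.09 to 6.58 CPM (median 3.40) and was too low to be tested. All 13 tested dendritic cell genes were higher in CD45+ cells, 11 of them past 4-fold. Xcr1, a receptor of cross-presenting dendritic cells, had 36.0 to 76.6 CPM (median 46.3), Siglech of plasmacytoid cells 25.6 to 60.7 (median 40.2) and Ccr7, which guides dendritic cells to lymph nodes, 73.3 to 182 (median 135). The 9 tested B cell genes of 11 passed as well, with Ighm, the heavy chain of IgM, at 159 to 697 CPM (median 305). Of mast cell genes only Hdc, the histamine-making enzyme, reached the test (119 to 656 CPM, median 337), while Cpa3, a defining protease of mast cells, had at most 3.81 CPM.

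All 20 T cell genes and all 16 genes of NK and cytotoxic cells passed the 4-fold test (median log2 fold changes 10.02 and 10.54, or 6.48 and 6.67 with floor genes at their bound). Trac, the constant region of the T cell receptor α chain, had 268, 540 and 875 CPM in the lowest, median and highest CD45+ library and at most 0.387 in CD45- cells, at least 468-fold. Cd8a, the coreceptor of cytotoxic T cells, had 134 to 395 CPM (median 245), and Cd4, the helper coreceptor, 10.4 to 28.0 (median 19.3). The range of Cd8a lay above that of Cd4 in these libraries; counts from the 3′ end do not scale with length, but the number of reads per molecule of each gene is not known. Foxp3, the factor of regulatory T cells, had 5.88 to 30.5 CPM (median 9.05). The killing proteins were high, with Gzma at 226 to 789 CPM (median 520), Gzmb at 79.4 to 196 (median 169) and Prf1 (perforin) at 160 to 574 (median 311). Ifng, the interferon of activated T and NK cells, had 68.5 to 224 CPM (median 120) and no count in CD45- cells. The receptors Ncr1 and Klrb1c (NK1.1) of NK cells had 16.4 to 56.1 and 39.5 to 155 CPM.

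**Figure D2:**
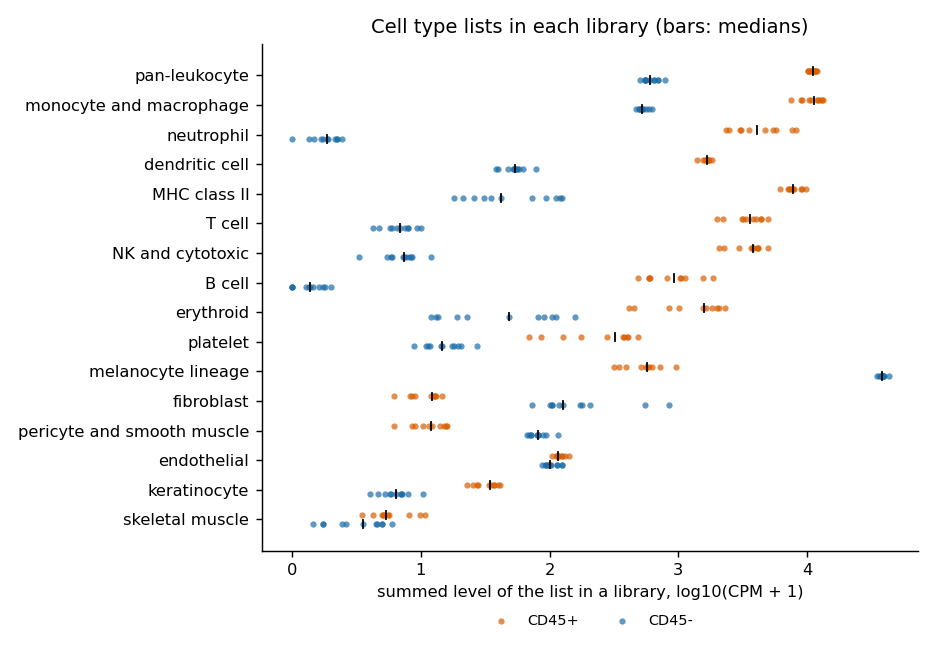
Summed level of each cell type list (horizontal axis, log10 of CPM + 1) in the 10 CD45+ and 11 CD45- libraries, with a point per library and a bar at the median of each fraction. Every leukocyte list is higher in all CD45+ libraries than in any CD45- library, the melanocyte list is higher in all CD45- libraries, and the fibroblast list spans 71.6 to 846 CPM within CD45- cells.

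Libraries of the CD45+ fraction differed in the summed levels of their lineage lists. The summed neutrophil level ran from 2341 to 8157 CPM (median 4137), and its highest values were those of replicates 9 and 10 (7599 to 8157, against 2341 to 5713 in the other 8 libraries). The same libraries had the lowest sums of T cell genes (2005 to 2228 against 3104 to 4960) and of NK genes (2065 to 2260 against 2942 to 4985) and the highest of B cell genes (1549 to 1837 against 483 to 1130). Their macrophage sums, 11919 to 12938 CPM, lay within the range of the others, 7516 to 13157. These libraries were named after their values were seen. Without them, 1500 and 938 genes passed the 4-fold test, against 1513 and 867, and the median log2 fold changes of the neutrophil and T cell lists were 9.92 and 10.14.

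MHC class II genes were higher in CD45+ cells. The pathway displays peptides to CD4+ T cells, and Ciita is its master regulator. All 9 tested genes passed the 4-fold test, the median log2 fold change being 7.90 (5.99 with floor genes at their bound). H2-Ab1, the β chain of I-A, had 1567, 2032 and 2456 CPM in CD45+ and 0.594, 4.12 and 17.3 CPM in CD45- cells. Cd74, the invariant chain, had 886 to 1609 CPM (median 1135) against 0 to 11.3 (median 2.99), and Ciita 57.0 to 127 (median 86.2) against 0.368 to 3.12 (median 1.5). No tested member overlapped between the fractions, beside 47.0% of all tested genes without overlap.

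Pigment cell genes marked the CD45- fraction. Of 21 tested melanocyte genes, 20 were higher in CD45- cells and 19 passed the 4-fold test, the list median being -6.37 on the log2 scale, while Kit was higher in CD45+ cells. Dct, the dopachrome tautomerase of melanin synthesis, was the most abundant marker, with 18827, 21265 and 23767 CPM in the lowest, median and highest CD45- library and 71.9, 108 and 302 CPM in CD45+ cells (20992 ± 1449, SD, n = 11, against 130 ± 72.0, n = 10). Its log2 fold change was -7.33 ± 0.25 (edgeR adjusted p = 2e-21). Pmel, the fibril protein of melanosomes, had 2594 to 3536 CPM (median 3007) against 3.53 to 37.0 (median 16.3). Tyrp1 had 1681 to 2673 CPM (median 2060) against 4.70 to 25.1 (median 9.98). Tyr, the rate-limiting enzyme of melanin synthesis, had 215 to 297 CPM (median 267) against 0 to 4.01 (median 0.253), the largest fitted change of the list at -7.97 ± 0.21. These genes did not overlap between the fractions, and their CD45- libraries lay close together.

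Other members followed. Mlana, a melanosomal protein known as the antigen MART-1, had 1115 to 1454 CPM (median 1239) in CD45- cells, and Slc45a2, a melanosomal transporter, 385 to 508 (median 452). Gpnmb, a melanosomal glycoprotein that macrophages also make, had 3615 to 6242 CPM (median 4518) against 100 to 319 (median 236), a smaller log2 fold change of -4.40 ± 0.19. Rab27a, which tethers melanosomes and also works in cytotoxic granules, had 69.5 to 103 CPM (median 84.5) against 16.7 to 47.9 (median 33.3), or -1.35 ± 0.13. Kit, the receptor of melanoblasts and mast cells, had 2.03 to 6.23 CPM (median 4.46) in CD45- and 11 to 23.2 (median 12.8) in CD45+ cells, so that it was higher in the CD45+ fraction by 1.78 ± 0.17 (edgeR adjusted p = 1.3e-10).

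**Figure D3:**
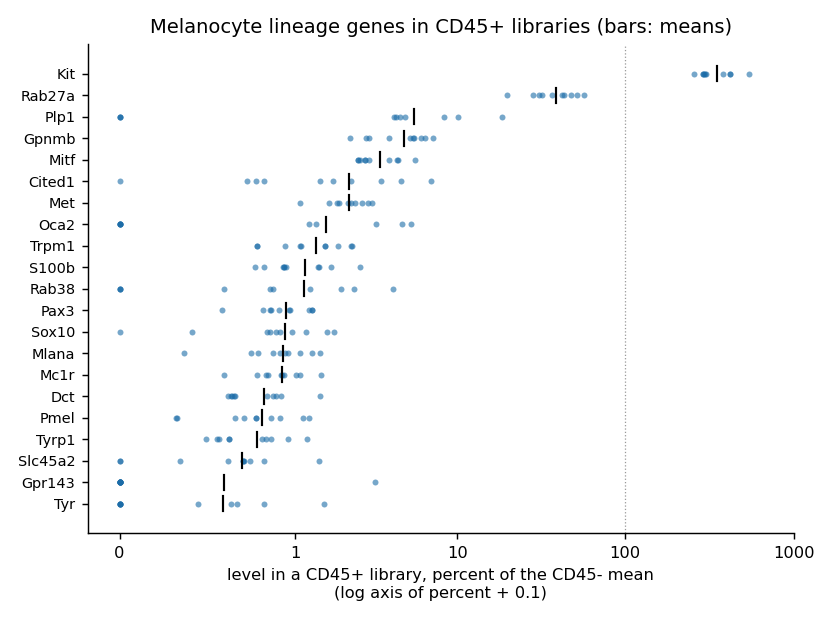
Level of each tested melanocyte gene in the 10 CD45+ libraries as a percent of its mean in CD45- cells (horizontal axis, log scale of percent + 0.1), with a point per library, a bar at the mean and a dotted line at 100%. Kit lies above 100% in every library, Rab27a has a mean of 39.0%, and most other genes lie between 0 and 10%.

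Lineage transcription factors, a list chosen to mark cell types, differed between the fractions. Of 22 tested lineage factors, 16 were higher in CD45+ cells (15 past 4-fold) and 6 in CD45- cells (all 6 past 4-fold), and no factor overlapped, beside 47.0% of all tested genes without overlap. Spi1, which encodes PU.1, had 168, 237 and 279 CPM in CD45+ cells and at most 1.56 in CD45- cells (8.59 ± 0.20). Runx3, a factor of cytotoxic lymphocytes, had 364 to 668 CPM (median 477), Ikzf1 (Ikaros) of lymphoid cells 201 to 355 (median 292) and Irf8 of dendritic cells and monocytes 458 to 663 (median 589). In CD45- cells Mitf, the master regulator of pigment cells, had 1211, 1302 and 1775 CPM against 34.2, 39.1 and 75.7 (-4.85 ± 0.14). Sox10 and Pax3, the neural crest factors upstream of Mitf, had 310 to 367 (median 341) and 350 to 417 CPM (median 390) against at most 6.11 and 4.90. Tfap2a, Tbx2 and Sox9, further factors of neural crest and pigment cells, had log2 fold changes of -5.46, -5.70 and -6.76.

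Among CD45- markers of at least 50 CPM without overlap, the largest fitted differences outside the melanocyte list were those of Adamts1, Cdh19, Tspan10, Cyp2j6, 4930435M08Rik, Cpe and Chsy3. Adamts1, Cdh19, Cyp2j6 and 4930435M08Rik were at the floor in CD45+ cells, so the fitted values do not order them. 4930435M08Rik lies within the span of Dct on the opposite strand, so its counts are uncertain. Adamts1, a secreted metalloprotease, had 130 to 236 CPM (median 171) in CD45- cells and at most 1.33 in CD45+ cells, at least 87.2-fold. Cdh19, a cadherin of Schwann cells and of the neural crest, had 62.7 to 104 CPM (median 79.8) against at most 1.22. Met, the receptor of hepatocyte growth factor, was among the most abundant markers with 1689, 1880 and 2110 CPM against 20.6, 42.3 and 58.3 (-5.49 ± 0.14). Syt4, a synaptotagmin, had 1350 to 1754 CPM (median 1507) against 3.53 to 28.3 (median 9.92). Mt1 (metallothionein), Dbi (acyl-CoA binding) and Oxct1 (ketone body use) were abundant in both fractions and passed the 4-fold test at -2.48, -2.24 and -2.52.

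Each fraction held a small amount of the RNA that marks the other. The summed melanocyte list reached 0.726% to 1.87% of its mean CD45- share in the CD45+ libraries (median 1.22%). Gpnmb, which macrophages also make, had a mean of 212 CPM in CD45+ cells and Dct 130, where the list sum had a median of 565. Gene by gene, 10 of 21 were under 1% of their CD45- level, 9 between 1% and 10%, and 2 above (Rab27a at 39.0% and Kit at 349%). The pan-leukocyte list reached 5.07% to 8.27% of its CD45+ share in CD45- libraries (median 6.77%), and Cd44 and Arhgdib gave most of it, while 12 of the 20 genes were at the floor. The part of free RNA or of cells of the other fraction in these levels was not tested.

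Markers of other tumor cells were few. Of 14 fibroblast genes 3 were tested, and all 3 were higher in CD45- cells. Col1a1, a chain of type I collagen, had 4.93, 22.5 and 302 CPM in CD45- cells against 1.18, 3.75 and 6.11 in CD45+ cells, so the fractions overlapped (-3.91 ± 0.74, edgeR adjusted p = 2.3e-05). Its highest values, 155 to 302 CPM, were those of CD45- replicates 1 and 2, against 4.93 to 45.8 in the other 9 libraries. Without these libraries 2 fibroblast genes were tested, both still higher in CD45- cells. Fbln1, a matrix protein, did not follow this range, at 49.7 to 79.8 CPM (median 58.2). Mcam was the only tested pericyte gene of 9 and is also a melanoma adhesion molecule, with 62.7 to 108 CPM (median 67.3) against at most 4.05. No skeletal muscle gene of 10 was tested, and Sfn of keratinocytes and Fabp4 of adipocytes, the only tested members of 10 and 7, had at most 25.8 and 35 CPM and were higher in CD45+ cells.

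Endothelial genes went both ways. Egfl7 and Eng were higher in CD45- cells past 4-fold (-3.34 ± 0.19 and -2.97 ± 0.15), as was Vwf at a smaller size (-1.47 ± 0.26), while Pecam1, Kdr and Flt1 were higher in CD45+ cells (4.98 ± 0.23, 3.42 ± 0.23 and 2.99 ± 0.30). Pecam1, an adhesion molecule that leukocytes and platelets also carry, had 40.0 to 72.3 CPM (median 45.8) in CD45+ cells and 0 to 4.50 (median 1.23) in CD45- cells. Kdr, the main VEGF receptor of vessels, had 20.2 to 37.9 CPM (median 29.3) against 0.773 to 9.0 (median 2.25). The summed list was 103 to 140 CPM in CD45+ and 86.4 to 124 CPM in CD45- libraries. Globin RNA was higher in CD45+ cells, with Hbb-bs at 245 to 1418 CPM (median 895) against 6.02 to 106 (median 31.3), and counts of the adult globins are uncertain because their genes are near copies. Of 8 platelet genes 2 were tested. Pf4 had 31.8 to 327 CPM (median 218) in CD45+ cells against at most 1.15 CPM in CD45- cells. Itgb3 was higher in CD45+ cells by a log2 fold change of 1.15 and did not pass the 4-fold test.

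Antigen presentation by MHC class I was present in both fractions and lower in CD45- cells. Of 15 tested genes 13 were higher in CD45+ cells, 10 past 4-fold, beside 42.5% and 14.0% of all tested genes. Canx, a chaperone of the endoplasmic reticulum, was higher in CD45- cells (-0.99 ± 0.07). With library totals 12 genes were higher in CD45+ and 2 in CD45- cells. B2m, the light chain of all class I molecules, had 4219, 4937 and 5634 CPM in CD45+ and 436, 783 and 1543 CPM in CD45- cells (4923 ± 508, SD, n = 10, against 918 ± 422, n = 11), a log2 fold change of 2.42 ± 0.20 (edgeR adjusted p = 2.7e-12). H2-K1, a classical heavy chain, had 1488 to 2633 CPM (median 2159) against 145 to 361 (median 188), and H2-D1 659 to 1055 (median 864) against 53.4 to 189 (median 81.0). Tap1, which pumps peptides to the class I molecules, and Psmb8, of the immunoproteasome, differed by 3.17 ± 0.24 and 4.05 ± 0.26. H2-Q7, a nonclassical molecule, had 315 to 581 CPM and at most 0.574 in CD45- cells. Heavy chain genes resemble each other, and their counts are uncertain to the extent that reads were shared.

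Interferon-induced genes were higher in CD45+ cells as a group, with 18 of 18 tested and 9 past 4-fold, at a median log2 fold change of 2.39. Over all tested genes these were 42.5%, 14.0% and 0.05. Isg15, a ubiquitin-like antiviral protein, had 177 to 482 CPM (median 394) against 8.02 to 66.8 (median 27.7), and Irf7, the regulator of interferon genes, 70.0 to 131 (median 83.6) against 0.411 to 4.59 (median 1.84). Bst2 (tetherin) was near parity with 218 to 493 against 128 to 386 CPM, overlapping (0.44 ± 0.17, and 0.17 with library totals, where the call was lost and 17 of the 18 genes passed).

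Within the CD45- fraction, interferon and MHC genes varied together from library to library. The 5 highest values of the summed interferon list (850 to 1005 CPM, against 381 to 634 in the other 6) belonged to replicates 1, 2, 5, 6 and 7. The same libraries held the 5 highest sums of MHC class I genes (3590 to 4472 against 2569 to 3211), of MHC class II genes (72.5 to 125 against 17.2 to 41.2), and of B2m (943 to 1543 against 436 to 783). They also had the highest Cd274 (5.74 to 11.5 against 2.06 to 5.62 CPM) and Igtp, an interferon-γ-induced GTPase (73.8 to 103 against 17.7 to 46.4). Sums of pan-leukocyte genes were 503 to 784 CPM in these and 547 to 644 in the other libraries, which overlap. Cd44 and Arhgdib gave most of that sum in CD45- cells, so it could not show whether leukocyte RNA differed between them. Replicates 1 and 2 also had the highest sums of fibroblast genes, at 552 to 846 CPM against 71.6 to 205 in the other 9 libraries. The grouping by interferon and MHC genes was read from the values and was not tested.

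**Figure D4:**
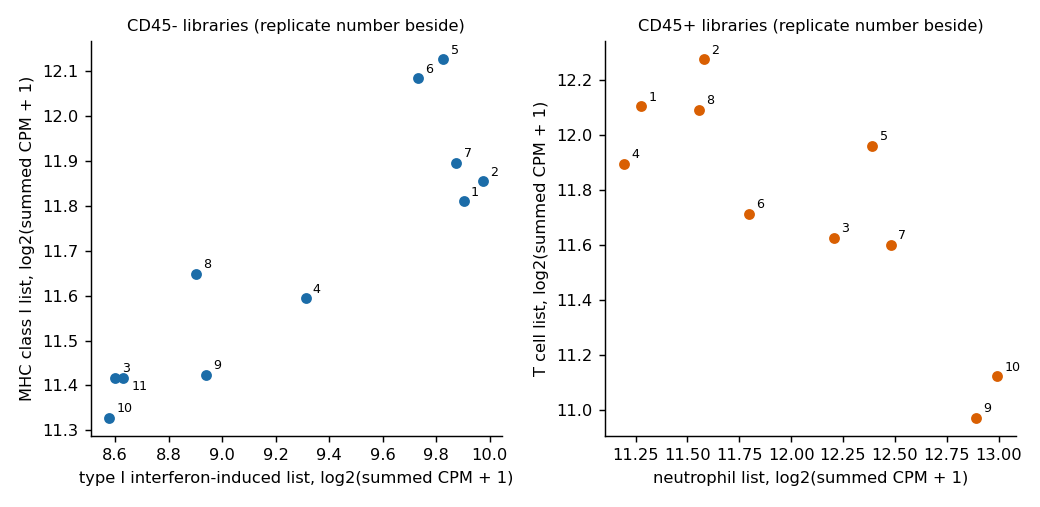
Summed levels of pairs of lists (log2 of CPM + 1) with a point per library and its replicate number, for MHC class I against interferon-induced genes in 11 CD45- libraries (left) and T cell against neutrophil genes in 10 CD45+ libraries (right). On the left, replicates 1, 2, 5, 6 and 7 lie at the upper right, and on the right replicates 9 and 10 lie at the lower right.

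Checkpoint genes were carried mostly by immune cells. Of 18 tested genes 17 were higher in CD45+ cells, 16 past 4-fold, beside 42.5% and 14.0% of all tested genes. Cd276 (B7-H3) was higher in CD45- cells at 4.68 to 12 CPM (median 8.89) against 0.506 to 2.72 (median 1.92). Cd274, which encodes PD-L1, had 62.9, 91.2 and 161 CPM in CD45+ and 2.06, 5.62 and 11.5 CPM in CD45- cells (4.05 ± 0.19, edgeR adjusted p = 3.8e-18). Its receptor Pdcd1 (PD-1) had 46.6 to 150 CPM (median 87.6) and Ctla4 82.7 to 194 (median 145), with no count of either in CD45- cells. Havcr2 (TIM-3) had 41.0 to 75.4 CPM (median 54.7), whereas Lag3 and Tigit had at most 4.23 and 8.61 CPM and were not tested. Cd47, the signal against phagocytosis, had 325 to 451 CPM (median 370) against 54.5 to 83.2 (median 66.2), also higher in the CD45+ fraction.

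Ligands and receptors were paired to ask which fraction could send and which could receive. Of 56 pairs, 29 had both partners higher in CD45+ cells, and 3 had a ligand higher in CD45- cells with a receptor higher in CD45+ cells: Mif with Cd74, Tgfb2 with Tgfbr2, and Pros1 with Mertk. Of 53 ligands 32 were higher in CD45+ and 6 in CD45- cells, and of 48 receptors 36 and 2, beside 42.5% and 38.0% of all tested genes. Among them 11 ligands and 8 receptors were too low to be tested, and 3 and 1 more were at the floor in both fractions. Mif, a cytokine that binds Cd74, had 933 to 1389 CPM (median 1051) in CD45- and 308 to 486 (median 424) in CD45+ cells (-1.39 ± 0.09). Tgfb2 had 13.5 to 22.9 CPM (median 17.2) against at most 2.18, while Tgfb1 had the opposite direction with 49.2 to 80.2 CPM (median 61.9) in CD45+ and 1.51 to 5.99 (median 2.37) in CD45- cells. The receptors higher in CD45- than in CD45+ cells were Met and Erbb3 (-2.84 ± 0.19). Their ligands Hgf and Nrg1 were too low to be tested. These ligands had at most 6.11 and 10.9 CPM in CD45+ cells and 0.368 and 0.461 in CD45- cells. Ifngr1, the receptor of interferon-γ, had 468 to 704 CPM (median 608) against 22.1 to 37.4 (median 28.1).

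**Figure D5:**
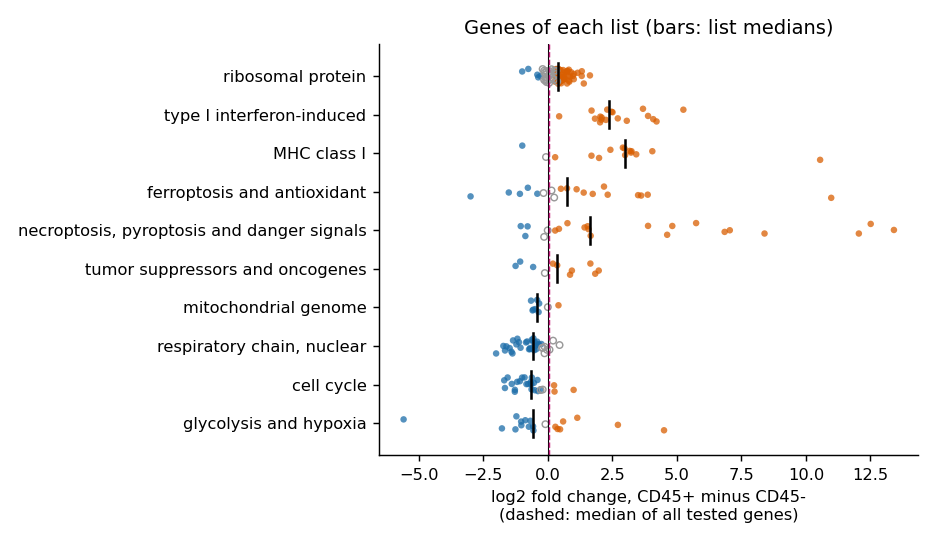
Log2 fold change (CD45+ minus CD45-, edgeR, horizontal axis) of each tested gene of 10 lists, with a point per gene, filled where the gene passed the adjusted p of 0.05, a bar at the median of the list and a dashed line at the median of all tested genes. The interferon and MHC class I lists lie to the right of 0 except for Canx and 1 gene near 0, the ribosomal list lies close to 0, and the respiratory chain and cell cycle lists lie mostly to the left.

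In the cell cycle, respiratory chain and mitochondrial lists no gene passed the 4-fold test, beside 22.0% of all tested genes, and the counts moved with the scaling. Over all tested genes 38.0% were higher in CD45- and 42.5% in CD45+ cells (median 0.05). With library totals these were 5249 and 3651 of 10803 genes (median -0.24). Of 27 tested cell cycle genes 22 were higher in CD45- cells and 3 in CD45+ cells, with a median of -0.66 (24 and 1, median -0.94, with library totals). Top2a, the topoisomerase of dividing cells, had 501, 732 and 803 CPM in CD45- and 222, 375 and 593 in CD45+ cells (-0.90 ± 0.14), and the fractions overlapped. Mcm2, of the replicative helicase, had 134 to 230 CPM (median 182) against 31.3 to 75.8 (median 55.1), and Ccnb1 (cyclin B1) 34.6 to 69.6 (median 58.2) against 7.96 to 28.2 (median 15.9), without overlap. Cenpa, the histone variant of centromeres, went the other way (1.0 ± 0.11). Of 37 tested nuclear genes of the respiratory chain 29 were higher in CD45- cells and 0 in CD45+ cells (median -0.59; 35 and 0 with library totals). Ndufa5, a complex I subunit, had 384 to 561 CPM (median 456) against 84.4 to 159 (median 114), the largest of them at -2.01 ± 0.10, and Sdhb of complex II differed by -1.48 ± 0.08. Of the 9 tested genes of the mitochondrial genome 7 were higher in CD45- cells (median -0.42), and mt-Rnr2, the large ribosomal RNA of mitochondria, was higher in CD45+ cells (0.41 ± 0.16, edgeR adjusted p = 0.018). That call was lost with library totals (0.13), without a filter on low counts (0.30), and when any of CD45+ replicates 5 and 6 (0.34 and 0.28) or CD45- replicates 3, 6, 9, 10 and 11 (0.32 to 0.33) was left out. Since that RNA was abundant, the summed list had medians of 73432 CPM in CD45+ and 74794 CPM in CD45- cells.

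Ribosomal protein genes leaned the other way and lost that lean under another scaling. Of 79 tested, 51 were higher in CD45+ and 5 in CD45- cells (median 0.39), but with library totals 27 and 19 (median 0.10), so that the lean depended on the scaling. Over all tested genes 42.5% were higher in CD45+ and 38.0% in CD45- cells (median 0.05). With library totals these were 3651 and 5249 of 10803 genes (median -0.24). Rplp0, of the ribosomal stalk, had 958 to 1267 CPM (median 1016) against 535 to 725 (median 614), and Rps27l, a p53-regulated relative of a ribosomal protein, 85.5 to 158 (median 129) against 224 to 302 (median 258). Many of these genes have near-identical pseudogenes, so single counts are uncertain.

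Of 19 tested glycolysis and hypoxia genes 11 were higher in CD45- and 7 in CD45+ cells (median -0.57; 12 and 4 with library totals), beside 38.0% and 42.5% of all tested genes. Car9, a carbonic anhydrase that hypoxia induces, had 100 to 185 CPM (median 123) in CD45- and 0.588 to 3.76 (median 2.67) in CD45+ cells (-5.59 ± 0.17), while Egln3, a hypoxia-induced prolyl hydroxylase, had 2.18 to 6.57 (median 5.27) against 61.2 to 228 (median 91.3) in CD45+ cells (4.50 ± 0.25). The glucose transporters Slc2a1 and Slc2a3 were higher in CD45+ cells (1.14 ± 0.12 and 2.71 ± 0.13), and Hk2, the hexokinase that traps glucose, was higher in CD45- cells (-1.22 ± 0.13). Ldha, lactate dehydrogenase, was abundant in both with 1656 to 2153 (median 1764) against 2494 to 2958 CPM (median 2769).

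Genes of regulated cell death, which the study followed after ablation, were also measured in these sham-treated tumors. Of 22 tested genes of necroptosis, pyroptosis and danger signals 17 were higher in CD45+ cells, 10 past 4-fold, and 3 in CD45- cells (median 1.62). Over all tested genes these shares were 42.5%, 14.0% and 38.0% (median 0.05). Ripk3, the kinase that starts necroptosis, had 17.1, 25.5 and 34.5 CPM in CD45+ and 0, 0.374 and 1.15 CPM in CD45- cells (5.75 ± 0.27, edgeR adjusted p = 6.2e-18). Mlkl, the pore-forming substrate of Ripk3, had the reverse order with 0, 9.91 and 15.3 CPM in CD45+ and 11.1, 18.6 and 27.2 CPM in CD45- cells (-1.05 ± 0.21), and the fractions overlapped. Zbp1, a sensor that engages Ripk3, had 55.0 to 125 CPM (median 85.4) against 1.23 to 17.3 (median 5.52). The inflammasome genes Nlrp3 and Casp1 had 111 to 494 and 44.0 to 73.1 CPM and at most 1.38 in CD45- cells. The pore proteins split, with Gsdmd higher in CD45+ cells (4.62 ± 0.17) and Gsdme in CD45- cells (-0.87 ± 0.14).

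Of 19 tested ferroptosis and antioxidant genes 11 were higher in CD45+ and 5 in CD45- cells, where 80.4% of all tested genes were called in either direction, so the list as a whole did not stand apart in this count. Slc7a11, the cystine importer that protects from ferroptosis, had 76.6 to 553 CPM (median 197) against 10.1 to 31.3 (median 17.6), or 3.62 ± 0.29. Tfrc, the transferrin receptor that brings in iron, had 127 to 222 CPM (median 182) against 440 to 582 (median 511), and Chac1, which degrades glutathione, 3.54 to 13.3 (median 7.36) against 37.8 to 86.8 (median 62.0). Fth1, the ferritin heavy chain, had 2752 to 8344 CPM (median 4615) against 881 to 1446 (median 1073). Ptgs2, a prostaglandin synthase often read as a ferroptosis marker, had 250 to 963 CPM (median 481) in CD45+ cells and at most 0.773 in CD45- cells.

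Of 11 tested tumor suppressors and oncogenes 7 were higher in CD45+ and 3 in CD45- cells (5 and 4 with library totals), beside 42.5% and 38.0% of all tested genes, and none passed 4-fold. Cdkn2a, a tumor suppressor locus known to be deleted in B16 melanoma, had 0 or 1 count in each CD45- library and 3.0 to 25.9 CPM (median 12.7) in CD45+ cells and was not tested. Cdk4 and Myc were higher in CD45- cells (-1.25 ± 0.12 and -1.07 ± 0.17), and Cdkn1a and Mdm2, targets of p53, in CD45+ cells (1.65 ± 0.12 and 1.83 ± 0.11). Xist, the RNA of the inactive X chromosome, had 479 to 992 CPM (median 653) in all CD45+ libraries and at most 4.52 in CD45- libraries, and the Y-linked Ddx3y had 0 to 2 counts in CD45+ and none in CD45- libraries. High Xist with almost no Ddx3y in each CD45+ library is the pattern of cells from female mice, although the labels give no sex.

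CD45+ libraries varied more than CD45- libraries. Among genes of at least 50 CPM, the median SD of log2 CPM was 0.245 in CD45+ and 0.163 in CD45- cells. The most variable genes of CD45+ cells were Cxcl3, Il23a, Pf4, Atp5md, Igha, Cstdc4, Il1f9, Hbb-bs, Ftl1-ps1 and Cxcl1, which include neutrophil attractants, plasma cell IgA and a platelet chemokine. Igha had 47.1, 214 and 403 CPM and Cxcl3 10.6, 60.2 and 318 CPM in the lowest, median and highest library. In CD45- cells they were Col1a1, Iigp1, mt-Tm, S100a6, Igtp, Snord89, Klf2, Gm49787, Snord13 and Hspa1b. S100a6, a calcium-binding protein of fibroblasts and many other cells, had 26.4, 37.7 and 209 CPM in CD45- and 1420, 1754 and 2126 CPM in CD45+ cells.

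The difference between the fractions was then set beside that of 4 CD45+ and 4 CD45- control libraries of day 3. In a joint fit of 12363 genes, 0 genes (0.0%) had a difference that changed between the days at an adjusted p of 0.05 in edgeR, with 624 at an unadjusted p under 0.05 and 0 called by DESeq2 and by limma-voom. This does not show that the days were alike, since the day 3 groups were small. The sign was the same at both days in 11499 of the 12363 genes, and the median absolute difference between days was 0.21 in log2 units. Log2 fold changes in the joint fit on day 3 and day 7 were -7.82 and -7.39 for Dct, 2.42 and 2.37 for B2m, 13.66 and 13.36 for Il1b, 6.35 and 5.69 for Ripk3, and -0.42 and -0.94 for Top2a. The Top2a difference changed by -0.52 ± 0.24 between the days, which did not pass the adjusted test.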

How the data were processed

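Sorted CD45+ and CD45- cells of sham-treated B16F10 tumors were profiled by QuantSeq, a 3′ end method whose counts are independent of transcript length. Reads had been trimmed by the authors (Trim Galore 0.5.0), aligned to GRCm38 (STAR 2.6.0), collapsed by unique molecular identifier and counted per gene (featureCounts), and the deposited values are raw whole-number counts, 1 table per fraction and day. The strand setting is not given in the sources used here, so counts of overlapping, antisense or near-identical genes (globins, T cell receptor chains, heat shock genes, MHC heavy chains) are uncertain. Of 55487 gene lines, 234 that shared 114 symbols were left out, both CD45+ tables had an unnamed line of column totals (100% of them) that was also left out, and 0 columns lacked a sample. No pair of libraries of a fraction agreed within sampling noise (chi-square over its degrees of freedom at least 2.35 and 2.61), so none was taken as a copy of another. Each was used as a replicate, although this check cannot show that libraries came from different tumors or mice. Counting error and floors do not cover other variation.

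Differences were tested with edgeR 4.0.16 in R 4.3.3 (TMM scaling; filterByExpr with a minimum count of 10 and total of 15; quasi-likelihood test; Benjamini-Hochberg adjustment at 0.05), with a threshold test against a log2 fold change of 2, in a fit of the 21 libraries, and an interaction with day over 29 control libraries. CPM are counts per 1000000 of the library total multiplied by its TMM factor, and percents of counts use the plain total. The paper names no test for single genes. Scripts were tested on simulated data. Alternatives were DESeq2 1.42.0, limma-voom 3.58.1, library totals, no filter, the replicate number as a block, summed lines of a symbol, thinned counts, CT010467.1 left out, and each replicate left out. Replicate numbers shared by the fractions were not linked in the labels.

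The members and the lists were chosen with earlier results of these data known. Genes were named from those that belong to the lists or ligand and receptor pairs, were among the 10 largest log2 fold changes or the 10 highest levels of a direction (past 4-fold, at least 50 CPM, no overlap), or among the 10 most variable of a fraction, or went against their list. Promoter sequences are from RefSeq (GRCm38.p6), matched by symbol. A few genes that this rule names are not reported here.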

Additional observations from a re-analysis of the deposited data

Results flagged for a closer look

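In 204 list sums and gene levels checked over the 10 CD45+ libraries, 4 had a library whose gap to the next exceeded Dixon's 95% critical value for 10 samples, where chance flags about 1 in 20. The 11 CD45- libraries are above the size at which this check is made. CD45+ replicate 6 had the highest summed level of genes of the mitochondrial genome, 118346 CPM, with the next library at 84705. It also had the highest Dct, the dopachrome tautomerase gene, at 302 CPM with the next at 169, and the highest Cd274, the PD-L1 gene, at 161 CPM with the next at 111. Without this library the log2 fold change of Dct was -7.61 and that of Cd274 was 3.89. S100a6, which encodes a calcium-binding protein, was highest in CD45+ replicate 10 with 2126 CPM, the next library being at 1780, and its log2 fold change without that library was 4.69. No gene passed the test of a different effect on day 3 and day 7.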

How the results depend on the processing

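Without a filter on low counts, 31196 genes were tested, and 8313 were higher in CD45+ cells, with 3240 and 1437 past 4-fold toward CD45+ and CD45- cells, and 6 genes had an interaction with day. Every other alternative kept the counts of calls within 1.5 times. Leaving out each library gave 4328 to 4639 genes higher in CD45+ and 4096 to 4318 higher in CD45- cells, and 1455 to 1556 and 832 to 923 past 4-fold. With the replicate number as a block, 4531 and 4055 genes passed, and 1524 and 863 past 4-fold, and no named gene changed its call. The correlation of same-numbered libraries ran from -0.03 to 0.15 (median -0.01), 2 of 10 were over 0.1 and 2 of 10 were best with their own number. Different sorted cells of a tumor need not vary together, so these values cannot show whether equal numbers pair the samples. No other pairing was examined. The pan-leukocyte level in CD45- libraries was 5.50% with TMM-scaled CPM and the melanocyte level in CD45+ libraries 1.49%. Library totals turned the sign of 183 of the 8691 calls, 0 of which were still called. Apoe turned to 0.011 without CD45+ replicate 1 and ran from -0.15 to 0.011 when each library was left out. Ftl1-ps1 turned to -0.21 with library totals, -0.024 without a filter and -0.049 without CD45+ replicates 9 and 10 (an alternative chosen after seeing the data), and ran from -0.10 to 0.18 when each library was left out, and Snord89 turned to -0.085 with library totals. The causes were not tested. Of 163 named and tested genes, 156 kept direction and call under every alternative that tested them (thinned counts tested 150). Depth limits genes under about 10 counts per library, where a fraction at the floor gives only a bound.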
